A study of Oryctolagus cuniculus with 12 samples.

Results

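The matrix metalloproteinase (MMP) and TIMP genes of the rabbit conjunctiva were followed through the first 14 days after glaucoma filtration surgery. The set held 8 MMP genes (MMP1, MMP2, MMP3, MMP9, MMP10, MMP12, MMP13, and MMP14) and 2 genes of tissue inhibitors of metalloproteinases (TIMP1 and TIMP3). They were chosen by gene symbol from the authors' table of 20566 genes, and all 10 were among the 14835 genes with enough reads to be tested. RNA was sequenced in 12 libraries of conjunctiva from female Japanese White rabbits about 3 months old. Left eyes without an operation gave the 3 control libraries. Right eyes gave 3 libraries of bleb-bearing conjunctiva for each of TL3h, TL3d, and TL14d, that is, 3 hours, 3 days, and then 14 days after trabeculectomy with mitomycin C. Trabeculectomy drains aqueous humor through a scleral opening into a bleb under the conjunctiva, and mitomycin C is a DNA crosslinker that limits scarring. By the methods of the study a betamethasone injection and an antibiotic ointment ended the operation, so the effects of surgery, mitomycin C, and steroid cannot be told apart. The control eyes belonged to operated animals, and neither their pairing with operated eyes nor the time at which their tissue was taken was given.

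MMPs are zinc-dependent endopeptidases that are made as inactive proenzymes and cut the proteins of the extracellular matrix once their propeptide is removed. TIMPs bind the active site and block it. In healing conjunctiva and cornea, MMPs are known for clearing damaged matrix and for letting epithelial cells, fibroblasts, and leukocytes move, while collagen that fibroblasts then lay down contributes to scarring of the bleb. By role, collagenases (MMP1, MMP13) cut fibrillar collagen, stromelysins (MMP3, MMP10) cut proteoglycans, laminin, and fibronectin and can activate other proMMPs, gelatinases (MMP2, MMP9) cut denatured and basement membrane collagen, and the remaining members here are macrophage elastase (MMP12) and a membrane-type enzyme (MMP14).

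MMP1, MMP3, MMP9, MMP10, and TIMP1 were higher than in the control eyes at 3 hours, and MMP1, MMP3, MMP9, MMP13, and TIMP1 were higher at 3 days. Per transcript length MMP10 was the most abundant of the 8 MMPs in all TL3h libraries, while MMP13 stood at 1.15 to 1.98 CPM at 3 hours and reached a mean of 209 CPM at 3 days. MMP2 and MMP14 made up nearly the whole pool of these 8 MMPs in the control eyes, a pool that leaves out other MMP genes. MMP2, MMP14, and TIMP3 did not pass against control in the fit of all libraries without covariates. At 14 days no member passed, and the 3 libraries were unlike each other. Levels are given as CPM (counts scaled to library size) after TMM scaling of library sizes, and group values as mean ± SD (n = 3). Fold changes are log2 values of the fit ± SE. The test was edgeR's quasi-likelihood test with Benjamini-Hochberg adjustment over all genes tested and a threshold of 0.05, and its result is named edgeR adjusted P. The study's text gives the operated groups as averages over eyes, and only right eyes were operated, so the libraries of an operated group came from separate animals. Neither the labels nor that text says this of the control libraries, whose spread may be partly technical.

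Libraries held between 27111276 and 38591374 counts. A count of 0 allows up to 3 counts with 95% confidence, which was 0.0712 to 0.124 CPM and covers counting error only. All 11 measured markers of surface epithelium reached 1 CPM or more in every library. Some libraries stood apart. TL14d replicate 1 resembled the control libraries more (mean correlation of log2 CPM across genes 0.952) than the other TL14d libraries (0.864), and control replicate 3 had the highest summed fibroblast markers of the control group, 14700 CPM against 2511 and 4940. Skeletal muscle markers summed to 332 CPM in control replicate 2 and 353 CPM in TL3d replicate 3, and to 6.80 CPM or less elsewhere.

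**Figure D1:**
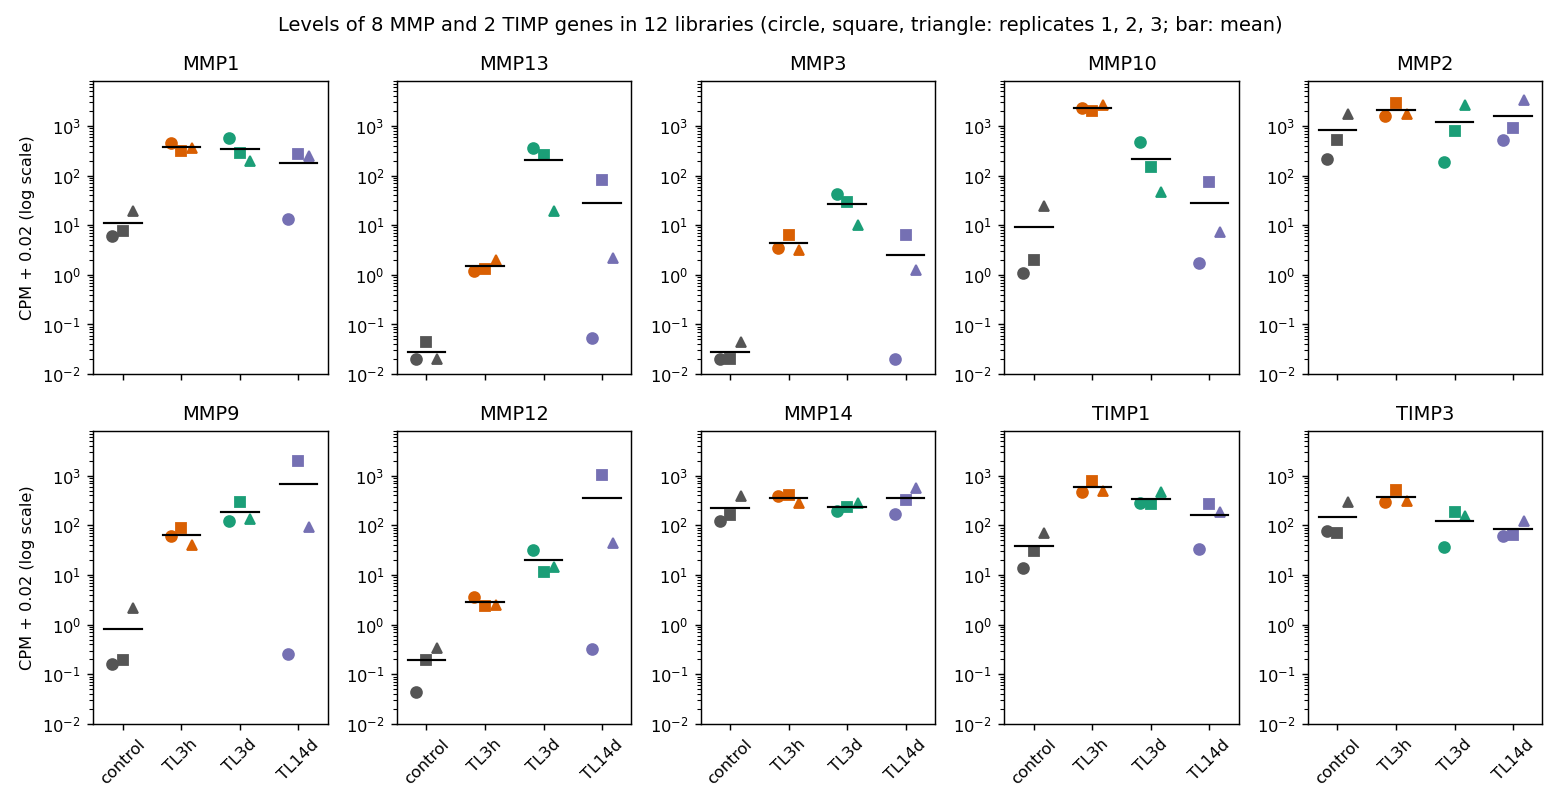
Levels of the 10 genes in every library, as CPM + 0.02 on a log axis, with replicates 1, 2, and 3 as circle, square, and triangle and the group mean as a bar. The TL3h libraries lie close together for each gene, while TL14d replicate 1 (circle) lies within the control range for 8 of the 10 genes.

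MMP1, interstitial collagenase, was measured at 6.03, 7.53, and 19.4 CPM in the control libraries, 442, 316, and 355 at 3 hours, 569, 278, and 196 at 3 days, and 13, 274, and 251 at 14 days. All libraries of the first 3 days were above all control libraries, and at 14 days replicate 1 alone was at control level. The group means were 11 ± 7.33 CPM in control, 371 ± 64.8 in TL3h, 348 ± 196 in TL3d, and 179 ± 145 in TL14d. MMP1 rose by 5.08 ± 1.0 at 3 hours (edgeR adjusted P = 0.00256) and passed in all 21 alternative analyses. It rose by 4.98 ± 1.0 at 3 days (edgeR adjusted P = 0.0155), a call that was lost without control replicate 2, without control replicate 1, or without TL3d replicate 1 (highest edgeR adjusted P = 0.061).

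MMP13, collagenase 3, had 1 count in all control libraries together. Its levels were 0, 0.0250, and 0 CPM in control, 1.15, 1.29, and 1.98 at 3 hours, 353, 254, and 19.6 at 3 days, and 0.0336, 81.6, and 2.12 at 14 days. Every operated library was above every control library, but TL14d replicate 1 and control replicate 2 held 1 count each. Against the limit of 3 counts, the mean was at least 19.9-fold higher at 3 hours and at least 2830-fold higher at 3 days. The 3-day difference passed (14.10 ± 2.97, edgeR adjusted P = 0.0169) and the 3-hour difference did not (6.96 ± 3.04, edgeR adjusted P = 0.0875). The 3-hour difference passed without TL14d replicate 1 (edgeR adjusted P = 0.0353), without TL14d replicate 2 (edgeR adjusted P = 0.019), with only the 6 libraries compared (edgeR adjusted P = 0.00176), and in the DESeq2 test. The 3-day call was lost without control replicate 1 or 2 or TL3d replicate 1 or 2 (highest edgeR adjusted P = 0.0741). Fitted values against such low counts depend on the small count that the fit adds, 0.125.

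MMP13 was also the only member whose difference between TL3d and TL3h passed in the edgeR fit of all libraries without covariates. The DESeq2 test also called MMP10 and TIMP3. Limma also called MMP3 on log2(FPKM + 0.1), and MMP3 and MMP10 on log2(FPKM + 1). With only the 6 libraries compared, MMP3, MMP9, MMP10, and MMP12 passed too. The MMP13 mean was 142-fold higher at 3 days than at 3 hours (7.14 ± 2.01, edgeR adjusted P = 0.0188), where 18.4% of all genes tested were higher and 19% lower. For MMP13 the libraries of both groups did not overlap, and within TL3d they differed 18.1-fold. The MMP13 call was lost without TL3h replicate 1, 2, or 3 (highest edgeR adjusted P = 0.0656). Without TL14d replicate 1, MMP3 (2.64 ± 0.70, edgeR adjusted P = 0.0154) and MMP12 (2.8 ± 0.98, edgeR adjusted P = 0.0459) were also higher at 3 days than at 3 hours. Without control replicate 3, TIMP3 was lower at 3 days (-1.55 ± 0.54, edgeR adjusted P = 0.0476).

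The stromelysins had their highest means at different times, MMP10 at 3 hours and MMP3 at 3 days. MMP3, stromelysin 1, had 1 count in all control libraries together. Its levels were 0, 0, and 0.0251 CPM in control, 3.46, 6.47, and 3.07 at 3 hours, 41.9, 28.8, and 10.1 at 3 days, and 0, 6.2, and 1.24 at 14 days. At 14 days the groups overlapped, because replicate 1 had no count. Its mean was at least 58.7-fold above control at 3 hours (8.51 ± 1.88, edgeR adjusted P = 0.00449) and at least 365-fold above it at 3 days (11.14 ± 1.94, edgeR adjusted P = 0.0114). The 3-day call was lost in 1 of 21 alternatives, without control replicate 2 (edgeR adjusted P = 0.051), and the 3-hour call only in limma on log2(FPKM + 1) values (adjusted P = 0.0608).

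MMP10, stromelysin 2, stood at 1.09, 2.0, and 23.8 CPM in control, 2292, 1973, and 2664 at 3 hours, 465, 146, and 46.3 at 3 days, and 1.68, 73.6, and 7.26 at 14 days. The TL3h libraries lay within 1.35-fold of each other and above all other libraries. TL3d lay below TL3h and above control without overlap, and at 14 days control and operated libraries overlapped. The 3-hour mean was 258-fold that of control (8.01 ± 1.86, edgeR adjusted P = 0.00596), and this call held in all 21 alternatives. At 3 days the mean was 24.4-fold that of control, which did not pass (4.61 ± 1.60, edgeR adjusted P = 0.0696) and passed without control replicate 3 (edgeR adjusted P = 0.0358) or without TL14d replicate 1 (edgeR adjusted P = 0.043). The mean at 3 days was 10.6-fold below that at 3 hours, a difference that did not pass (-3.40 ± 1.51, edgeR adjusted P = 0.101). This difference passed in 4 of 21 alternatives (lowest adjusted P = 0.0183, in the DESeq2 test).

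A run of 5 members lies side by side in the genome. MMP13, MMP12, MMP3, MMP1, and MMP10 follow each other on the plus strand within 171089 bp of chromosome 1 (chr1:113615791-113786879, OryCun2.0). MMP13, highest at 3 days, starts this row, and MMP10, highest at 3 hours, ends it. The row is bordered by a gene described as neutrophil collagenase, MMP8, which had no count in 10 of the 12 libraries with 2 counts in TL3d replicate 1 and 1 in TL14d replicate 3. It is followed by a gene described as MMP27, at 26.2 to 147 CPM in control, 151 to 205 at 3 hours, and 1.92 to 35.3 at 3 days. MMP27 was thus high in control, where MMP13 and MMP3 had almost no reads, and did not pass against control at 3 hours (1.2 ± 1.10, edgeR adjusted P = 0.409) or 3 days (-2.34 ± 1.14, edgeR adjusted P = 0.166).

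MMP9, gelatinase B, was measured at 0.142, 0.175, and 2.13 CPM in control, 60.5, 87.6, and 39.3 at 3 hours, 121, 302, and 134 at 3 days, and 0.235, 1992, and 94.3 at 14 days. The 3 groups up to 3 days did not overlap, with control lowest and TL3d highest. The TL14d libraries spanned 8465-fold and held both the highest level of all operated libraries and the lowest. MMP9 rose at 3 hours (6.26 ± 2.18, edgeR adjusted P = 0.0387) and at 3 days (7.83 ± 2.33, edgeR adjusted P = 0.0448). Both calls were close to the threshold. With 1 library left out, the first was lost in 8 of 12 cases and the second in 10, with an edgeR adjusted P of up to 0.116 and 0.132 without control replicate 2.

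MMP12, macrophage elastase, had the same order of groups. Its CPM values were 0.0237, 0.175, and 0.326 in control, 3.65, 2.32, and 2.52 at 3 hours, 32.6, 11.7, and 14.7 at 3 days, and 0.303, 1020, and 43.5 at 14 days. Control, TL3h, and TL3d did not overlap, and at 14 days replicate 1 lay in the control range while replicate 2 was above all other libraries. The difference from control did not pass at 3 hours (4.0 ± 2.0, edgeR adjusted P = 0.13) and just missed at 3 days (6.80 ± 2.12, edgeR adjusted P = 0.0513). Without TL14d replicate 1, which enters the common estimate of the spread, both passed (edgeR adjusted P = 0.0207 and 0.00661).

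MMP2, gelatinase A, is the main gelatinase of unwounded connective tissue. It was measured at 218, 522, and 1740 CPM in control, 1611, 2895, and 1715 at 3 hours, 188, 776, and 2650 at 3 days, and 527, 892, and 3253 at 14 days. All groups overlapped with control, and the libraries of TL3d differed 14.1-fold. In the fit without covariates, no difference of MMP2 from control passed. The values were 1.33 ± 1.0 at 3 hours (edgeR adjusted P = 0.318), 0.54 ± 1.0 at 3 days (edgeR adjusted P = 0.728), and 0.91 ± 1.0 at 14 days (edgeR adjusted P = 0.776).

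MMP14, a membrane-type MMP that activates proMMP2 at the cell surface, was at 121, 165, and 385 CPM in control, 382, 402, and 278 at 3 hours, 191, 229, and 285 at 3 days, and 170, 328, and 559 at 14 days. Every group overlapped with control, and the means differed 1.58-fold or less from that of control. The 3-hour difference was 0.66 ± 0.48 (edgeR adjusted P = 0.29). It passed without control replicate 3 (1.26 ± 0.44, edgeR adjusted P = 0.0426), the control library with the highest MMP14, MMP2, and fibroblast marker values.

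TIMP1, a secreted inhibitor of most MMPs, was measured at 14.1, 30.3, and 71.0 CPM in control, 477, 798, and 486 at 3 hours, 282, 275, and 477 at 3 days, and 32.8, 268, and 182 at 14 days. Its libraries of the first 3 days were all above the control range, and at 14 days replicate 1 lay within it. TIMP1 rose 15.2-fold at 3 hours (3.93 ± 0.79, edgeR adjusted P = 0.00276), in all 21 alternatives. It rose 8.96-fold at 3 days (3.16 ± 0.76, edgeR adjusted P = 0.0238). The 3-day call was lost without control replicate 1 or 2 or TL3d replicate 1 or 2 (highest edgeR adjusted P = 0.086).

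TIMP3, an inhibitor that stays bound to the matrix and also blocks ADAM proteases, was measured at 78.1, 71.8, and 293 CPM in control, 302, 506, and 311 at 3 hours, 36.2, 184, and 152 at 3 days, and 62.1, 64.1, and 123 at 14 days. TL3h lay above the 3 other groups, narrowly so for control replicate 3, and the other groups overlapped. On the FPKM scale TL3h and control overlapped too. The 3-hour difference did not pass (1.34 ± 0.67, edgeR adjusted P = 0.13). It passed without control replicate 3 (2.26 ± 0.64, edgeR adjusted P = 0.0184). The values at 3 days (-0.25 ± 0.66, edgeR adjusted P = 0.811) and 14 days (-0.83 ± 0.66, edgeR adjusted P = 0.69) did not pass either, and without control replicate 3 they were 0.71 and 0.13. TIMP3 was the only member whose mean at 14 days was below that of control.

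**Figure D2:**
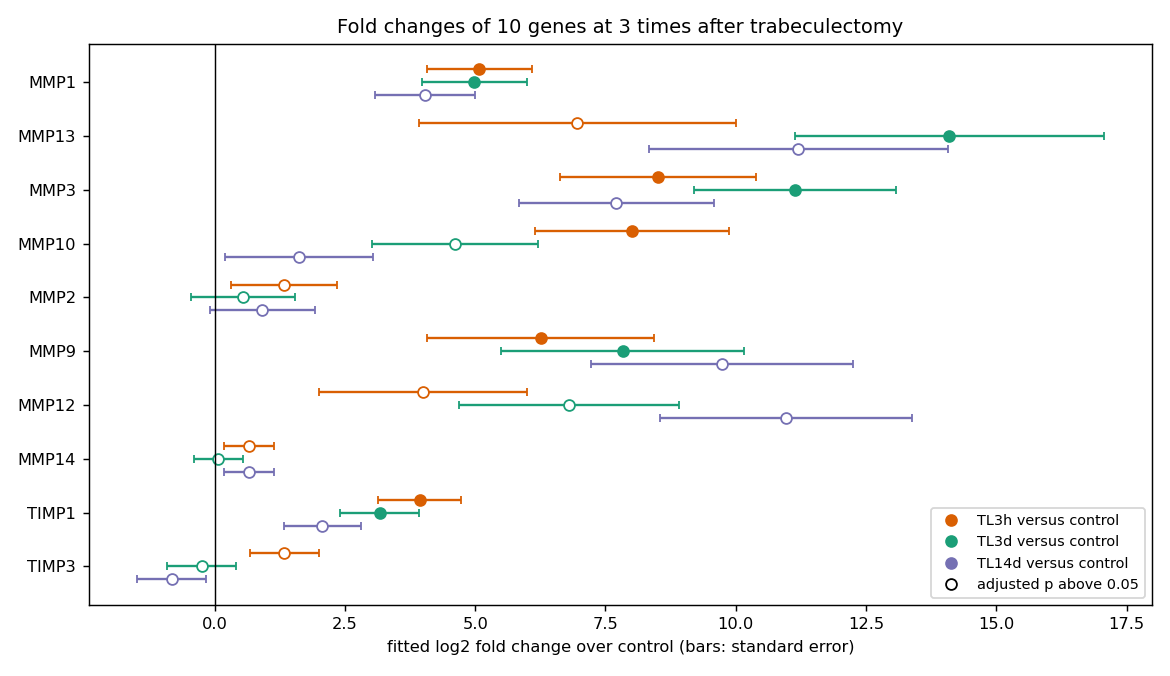
Fitted log2 fold change over control for each gene in TL3h, TL3d, and TL14d, with standard errors as bars; filled points passed an edgeR adjusted P of 0.05. TIMP1 and MMP1 combine large changes with short bars, while MMP12 and MMP9 have their largest fitted values and longest bars at 14 days, where no point is filled.

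At 3 hours 5 of 10 members were called higher and 0 lower, where 23.2% of all genes tested were higher and 22.2% lower. The median log2 fold change was 4.54 over the members and 0.02 over all genes. At 3 days 5 of 10 were higher and 0 lower, beside 10.6% and 7% of all genes, with medians of 4.8 and -0.00. All 3 libraries were above all 3 control libraries for 8 members at 3 hours, 7 at 3 days, and 1 (MMP13) at 14 days, against 28.9%, 23.8%, and 6.03% of all genes. In the joint test of the 3 time points 7 of 10 members passed, those not passing being MMP2, MMP14, and TIMP3, where 52.4% of all genes passed. Without control replicate 3 and TL14d replicate 1, a choice made after the data were seen, 8 members were called higher at 3 hours and 7 at 3 days. All genes called in either direction then numbered 7573 and 3859.

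The count at 3 days depended on single libraries. It was 0 without control replicate 2, 1 without control replicate 1 (MMP3), 1 without TL3d replicate 1 (MMP3), 2 without TL3d replicate 2 (MMP1 and MMP3), and 7 without TL14d replicate 1 or 2. The count over all genes tested moved too, so this is not particular to the members. It was 2608 with all libraries, and 370, 491, 449, 359, 3778, and 2983 in these settings in turn. The count at 3 hours stayed between 4 and 7, and MMP1, MMP3, MMP10, and TIMP1 were called whichever library was left out.

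**Figure D3:**
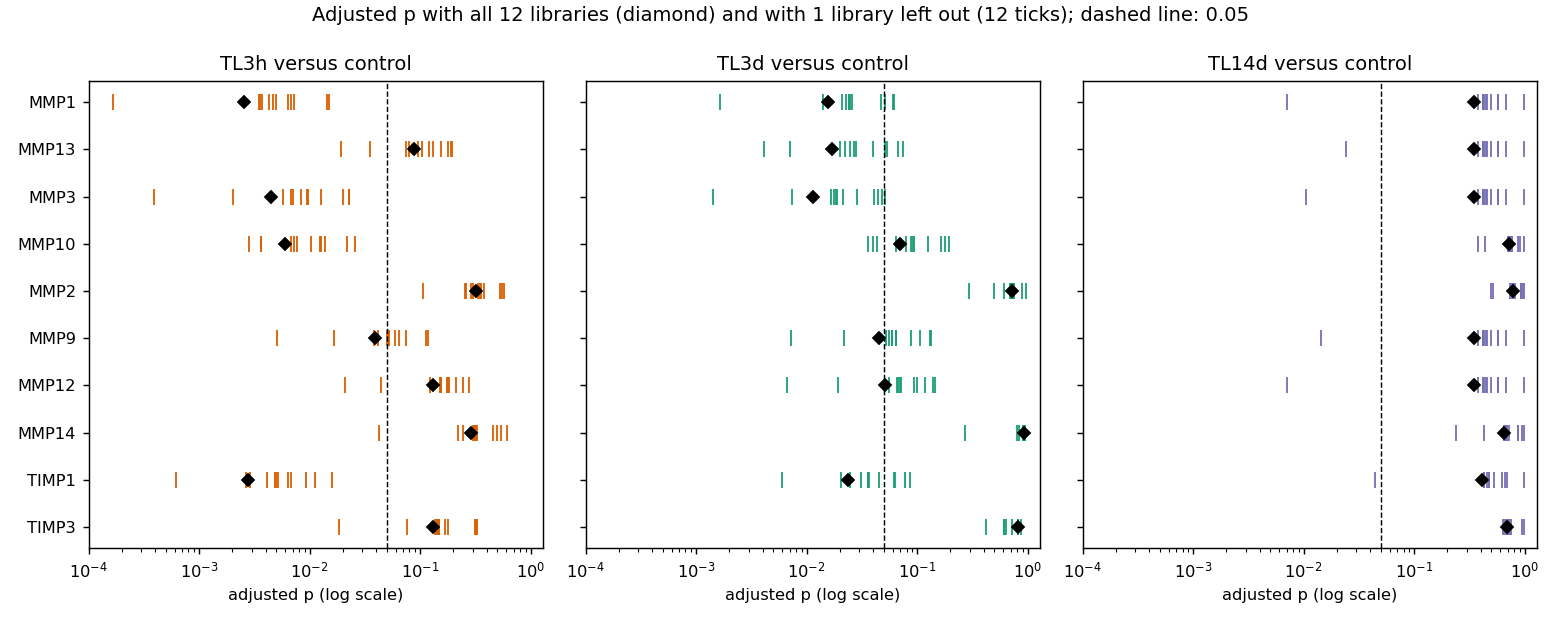
edgeR adjusted P of each gene against control with all 12 libraries (diamond) and with 1 library left out (12 ticks), on a log axis with the threshold of 0.05 dashed. At 3 hours all ticks of MMP1, MMP3, MMP10, and TIMP1 are left of the line; at 14 days the ticks left of it come from leaving out TL14d replicate 1.

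At 14 days no member passed (lowest edgeR adjusted P = 0.346) and 0% of all genes tested were called higher. At an unadjusted P under 0.05, 6 members and 1538 of the 14835 genes tested differed from control. The DESeq2 test called 5 members (MMP1, MMP3, MMP9, MMP12, and MMP13) among 367 genes called in either direction. The 3 libraries held different sets of raised genes. In TL14d replicate 1, 8 members were within the control range, MMP13 was above it, and TIMP3 was below it. In replicate 2, 7 members were above the control range (MMP1, MMP3, MMP9, MMP10, MMP12, MMP13, and TIMP1), and TIMP3 was again below it. In replicate 3, 8 members were above it, with MMP2 and MMP14 in place of MMP10. The share of all genes above the control range in single libraries was not computed. Leaving out replicate 1, 6 members were called higher (MMP1, MMP3, MMP9, MMP12, MMP13, and TIMP1), among 716 genes called in either direction. The values were 4.58 ± 0.58 for MMP1 (edgeR adjusted P = 0.00703) and 11.55 ± 1.46 for MMP12 (edgeR adjusted P = 0.00703). No member passed between TL14d and TL3d with all libraries, where 0.647% of all genes were higher and 1.59% lower. MMP3 (mean 10.9-fold lower at 14 days) and TIMP1 (2.14-fold lower) did not overlap between these groups. MMP3 passed in limma on log2(FPKM + 1) values (adjusted P = 0.0219), and MMP13 passed without TL14d replicate 2 (edgeR adjusted P = 0.0452).

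The spread within a group was itself uneven. Across the 10 members the highest TL3h library was 1.35 to 2.23 times the lowest, with a median of 1.68. In TL3d this ratio was 1.5 to 18.1, with a median of 3.54, and in TL14d it was 1.98 to 8465 over the 9 members with reads in every library. In TL3d the collagenases and stromelysins had the same order of libraries, with replicate 1 highest and replicate 3 lowest for MMP1, MMP13, MMP3, and MMP10. MMP2 and MMP14 had the reverse order.

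Levels of different genes were compared per transcript length, as the FPKM values that the authors deposited. In the control eyes MMP2 made up 65.6, 77.0, and 81.4% of the summed FPKM of the 8 MMP genes, and MMP2 and MMP14 together 96.8 to 97.9%. At 3 hours MMP10 was first, with 57.8, 45, and 62.6% of the pool, and MMP2 was second in each library. At 3 days MMP1 was first in replicate 1, with 32.7%, and MMP2 in replicates 2 and 3, with 34.9 and 76.8%. The collagenases MMP1 and MMP13 together made up 45.1, 27.4, and 8.46% of the pool at 3 days, against 1.27 to 2.55% in control.

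At 14 days MMP2 was again first in replicates 1 and 3, with 75.9 and 76.1%. Replicate 2 was unlike every other library, with 40.6% MMP9 and 28.2% MMP12. The summed FPKM of the 8 MMP genes over that of the 2 TIMP genes was 0.732, 1.42, and 1.21 in control, 1.96, 1.29, and 2.05 at 3 hours, 2.12, 1.17, and 1.43 at 3 days, and 1.60, 4.49, and 3.39 at 14 days. This ratio overlapped with control at 3 hours and 3 days and lay above it in all TL14d libraries, and it counts transcripts, not active enzyme. It leaves out TIMP2, at 175, 300, and 864 CPM in control and 458, 230, and 517 at 14 days. MMPs outside the set, such as MMP15, MMP16, MMP19, and MMP27, are left out too, so it is not the balance of all MMPs and inhibitors.

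The 2 inhibitors were also compared with each other. The FPKM of TIMP1 over that of TIMP3 was 0.119, 0.279, and 0.160 in control, 1.04, 1.04, and 1.03 at 3 hours, 5.14, 0.988, and 2.07 at 3 days, and 0.347, 2.76, and 0.979 at 14 days. All operated libraries were above all control libraries, and the ratio was not tested. TIMP3 is represented in the table by a transcript of 636 bases and TIMP1 by 888, and the short TIMP3 model raises its FPKM relative to that of TIMP1.

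**Figure D4:**
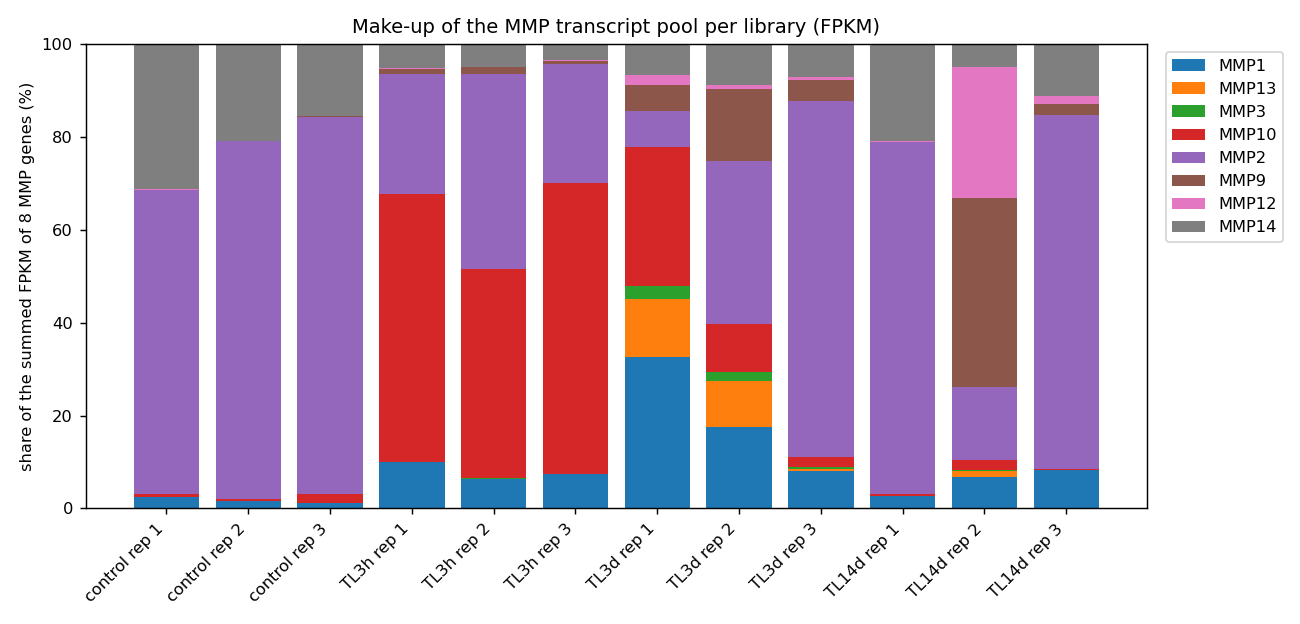
Share of each MMP gene in the summed FPKM of the 8 MMP genes, as stacked bars for the 12 libraries. MMP2 fills most of each control bar (65.6 to 81.4%), MMP10 is the largest part of each TL3h bar (45 to 62.6%), and MMP9 with MMP12 is seen as a large part in TL14d replicate 2 alone.

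TIMP1, MMP9, and MMP14 are the members with 2 transcripts in the authors' transcript table. The TIMP1 transcripts start 111 bases apart and end 8 bases apart on chromosome X (chrX:32653951-32658560, plus strand). The share of TIMP1 reads that the authors' processing gave to the shorter transcript was 0.0000723, 4.21, and 0.000904% in control, 45.2, 45.2, and 39.6% at 3 hours, and 43.1, 41.8, and 42.8% at 3 days. At 14 days it was 18.2% in replicate 1, 51.1% in replicate 2, and 41.8% in replicate 3. No control library reached the share of any operated library.

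The shorter TIMP1 transcript rose by 9.18 ± 1.71 at 3 hours (edgeR adjusted P = 0.00315) and the longer one by 3.07 ± 0.68 (edgeR adjusted P = 0.00776). At 3 days the shorter one rose (8.42 ± 1.66, edgeR adjusted P = 0.0297) and the longer one did not pass (2.37 ± 0.66, edgeR adjusted P = 0.0649). In the table of 26082 transcripts tested, 14.1% were higher at 3 hours and 3.24% at 3 days. The split of reads between nearly identical transcripts is an estimate, and the difference in response between these transcripts was not tested. TIMP1 lies inside SYN1, which is read from the other strand and had 1.0 to 28.2 counts per library. TIMP3 lies inside SYN3 on the other strand, with 2 to 15 counts.

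Cell markers were set beside the members, since in bulk tissue fewer cells of a type and less RNA per cell cannot be told apart. All 10 tested neutrophil markers rose at 3 hours, beside 23.2% of all genes, and the 11 markers summed to 4.91 to 109 CPM in control, 1434 to 3673 at 3 hours, 168 to 884 at 3 days, and 4.07 to 160 at 14 days. MMP9, which neutrophils are known to store, was thus lower at 3 hours, when the summed markers were highest, than at 3 days, without overlap, a difference that did not pass (edgeR adjusted P = 0.507). This MMP9 difference passed in 1 of 21 alternatives, with only the 6 libraries compared (edgeR adjusted P = 0.0346). MPO had too few counts to be tested, with 0.114 CPM at most. It was at 0 in control replicates 1 and 2, TL3h replicates 2 and 3, and TL14d replicate 2. CAMP was at 0 in control replicate 2 and FPR2 in TL14d replicate 1, and the neutrophil collagenase gene had almost no reads. In TL14d replicate 2 MMP9 stood at 1992 CPM beside a neutrophil sum of 160 CPM. The part of neutrophils in the MMP9 level was not tested.

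Markers of monocytes and macrophages, 7 of them in the table, summed to 72.7 to 606 CPM in control, 648 to 988 at 3 hours, 1296 to 2068 at 3 days, and 91.8 to 451 at 14 days. None was at 0 in any library, and 4 of 7 were called higher at 3 days, beside 10.6% of all genes. MMP12 was highest, at 1020 CPM, in TL14d replicate 2, where these markers summed to 451 CPM, below control replicate 3 with 606 CPM and an MMP12 level of 0.326 CPM. Within TL14d the sums of 91.8, 451, and 280 CPM had the same order as MMP12, and in the first 3 days both were lowest on average in control and highest in TL3d. The part of macrophages in the MMP12 level was not tested.

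Fibroblast markers, all 8 detected in every library, summed to 2511 to 14700 CPM in control, 13730 to 25090 at 3 hours, 519 to 7069 at 3 days, and 1373 to 6144 at 14 days. TL3d replicate 1, with the lowest sum, also had the lowest MMP2 and TIMP3 of all libraries, 188 and 36.2 CPM. TL3h replicate 2, with the highest sum, had the highest TIMP3, 506 CPM. The highest MMP2, 3253 CPM, was in TL14d replicate 3, where the sum was 6144 CPM, below the 14700 CPM of control replicate 3 with an MMP2 level of 1740 CPM. MMP13, MMP3, and MMP1 were at their highest in TL3d replicate 1, where surface epithelium markers also reached their highest sum, 29330 CPM. These markers were split in that library. KRT4, KRT5, KRT13, KRT14, KRT19, and, barely, CDH1 were above the control range. MUC4 was within it, and KRT15, EPCAM, PAX6, and MUC16 were below it. The part of fibroblast and epithelial content in these values was not tested.

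**Figure D5:**
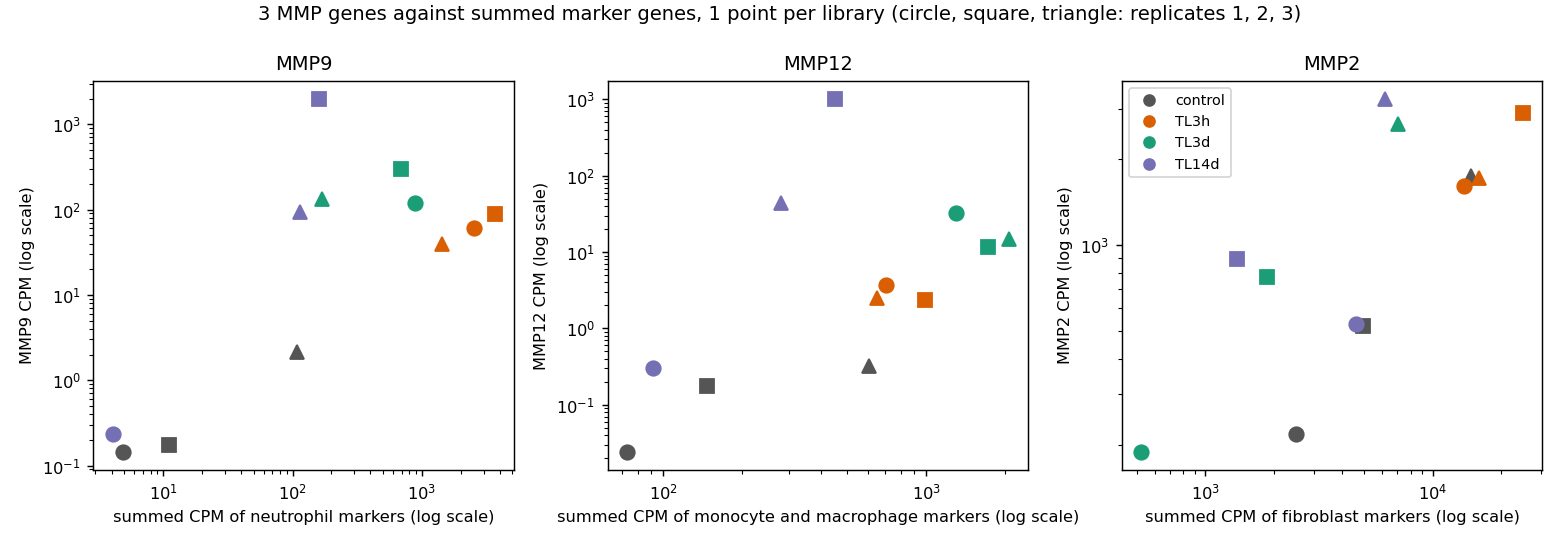
MMP9, MMP12, and MMP2 (CPM, log axis) against summed markers of neutrophils, of monocytes and macrophages, and of fibroblasts (CPM, log axis), with 1 point per library. In the first panels TL14d replicate 2 (purple square) lies highest, at 1992 CPM of MMP9 and 1020 CPM of MMP12, left of libraries with larger marker sums; for MMP2 the library with the lowest marker sum, TL3d replicate 1, is also the lowest point.

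Members with like patterns were found by Pearson correlation of log2 CPM over the 12 libraries, which share the differences between groups. The most alike were MMP1 and TIMP1 (r = 0.94), MMP3 and MMP13 (0.928), MMP1 and MMP3 (0.927), MMP1 and MMP9 (0.919), and MMP9 and MMP12 (0.913). MMP2 was most like MMP14 (0.866). The lowest value was that of MMP13 and TIMP3 (-0.178).

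Among 13253 genes whose mean was 1 CPM or more, MMP10 was most like PLAT (r = 0.988), FOSL1 (0.987), and PSMD12 (0.987). MMP2 was most like COL6A3 (0.989) and a pair of genes described as serpin H1 (0.99 and 0.974). MMP3 was most like MDM2 (0.99), FAM49B (0.986), and TIGAR (0.978), and MMP1 like NME1 (0.979), FHL3 (0.962), and TBCCD1 (0.958). MMP13 was most like CNOT10 (0.984), B4GALNT3 (0.978), and MDFI (0.975). For MMP9 the genes were TMSB15A (0.985), ADAM19 (0.983), and ARSJ (0.981), and for MMP12 they were HIVEP3 (0.968), IGFBP7 (0.964), and CD207 (0.964). TIMP1 was most like GARS (0.982), PEA15 (0.977), and PPP1R18 (0.977). MMP14 and TIMP3 had the weakest nearest genes, HSPG2 (0.921) and SLC36A4 (0.922).

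Other members of the MMP family and related gene lists were measured as well, and their counts stand beside the 23.2% of all genes higher and 22.2% lower at 3 hours and the 10.6% and 7% at 3 days. Of 10 further MMPs tested, 4 were higher and 1 lower than control at 3 hours, and 4 were higher and 0 lower at 3 days, with median log2 fold changes of 0.82 and 1.43 beside 0.02 and -0.00 over all genes. MMP19 rose from 7.53 ± 3.00 to 81.6 ± 33.7 CPM at 3 hours (3.44 ± 0.49, edgeR adjusted P = 0.000431), and MMP25, a membrane-anchored MMP of leukocytes, had 0 counts in every control library and 1.10 ± 0.51 CPM at 3 hours (edgeR adjusted P = 0.00314). MMP17 rose at 3 hours and 3 days (2.68 ± 0.86 and 3.48 ± 0.89, edgeR adjusted P = 0.0281 and 0.0279). MMP15, a membrane-type MMP, fell from 134, 135, and 51.3 CPM in control to 14.5, 3.98, and 9.66 at 3 hours (-3.51 ± 0.49, edgeR adjusted P = 0.00038). MMP28, epilysin of epithelial cells, rose at 3 days (3.40 ± 0.74, edgeR adjusted P = 0.0178), where it stood at 59.0, 25.9, and 12.9 CPM. None of the 3 other inhibitors tested (TIMP2, TIMP4, RECK) passed against control at any time, with medians of 0.80 at 3 hours and -1.05 at 3 days. The MMP17 call at 3 hours was lost in limma on log2(FPKM + 1) values (adjusted P = 0.275).

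All 7 tested genes of the plasminogen and proMMP activation route, which includes plasmin-generating proteases, were higher at 3 hours (median log2 fold change 5.55), and 5 were higher at 3 days (median 2.50). PLAT, tissue plasminogen activator, rose by 5.63 ± 1.0 at 3 hours (edgeR adjusted P = 0.00144). Of 7 tested cytokines and growth factors that induce MMPs, 5 were higher at 3 hours (median 7.31) and 4 at 3 days (median 5.13). IL6 rose from 0.117 ± 0.143 to 383 ± 120 CPM at 3 hours (11.65 ± 1.95, edgeR adjusted P = 0.000981), and IL1B rose from 1.63 ± 2.06 to 391 ± 89.4 CPM (7.91 ± 2.09, edgeR adjusted P = 0.0111). Of 11 tested AP-1, ETS, and RUNX factors, which bind MMP promoters, 6 were higher at 3 hours (median 1.71) and 3 at 3 days (median 1.17). FOSL1 stood at 0.275 ± 0.414 CPM in control, 106 ± 16.3 at 3 hours, and 6.96 ± 3.60 at 3 days, and ETV4 at 0.215 ± 0.128, 0.705 ± 0.556, and 15.9 ± 8.54 CPM.

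Matrix genes that encode MMP substrates formed the last list. Of 16 tested, 0 were higher and 1 lower at 3 hours (median 1.43; the gene that fell was SPP1, osteopontin, -1.53 ± 0.39, edgeR adjusted P = 0.00966). At 3 days 3 were higher and 1 lower (median 1.09). TNC, tenascin C, rose from 1.59 ± 1.43 to 558 ± 411 CPM (8.46 ± 2.10, edgeR adjusted P = 0.0263), COL7A1, the collagen of anchoring fibrils, rose by 1.02 ± 0.26 (edgeR adjusted P = 0.028), and COL2A1 fell by 6.38 ± 1.76 (edgeR adjusted P = 0.0361). The genes of these lists named with a call at 3 days (MMP17, MMP28, TNC, COL7A1, and COL2A1) each lost it in at least 1 alternative, with a highest adjusted P between 0.0646 and 0.189. At 14 days none of the genes of these lists passed.

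The members lie at known positions of OryCun2.0, and all but TIMP3 are on the plus strand. MMP2 lies at chr5:11717915-11743377, MMP14 at chr17:43077378-43087282, and TIMP3 at chr4:88311789-88361387. MMP9 lies on a contig not placed on a chromosome. Reads that fit several places can give fractional counts, which occurred for MMP14 in 8 of 12 libraries, MMP2 in 7, MMP1 in 6, MMP10 in 5, and MMP13 in 0. How such reads were shared is not given in the sources used here, so levels of the related genes MMP1, MMP3, and MMP10 may hold an uncertain share of each other's reads.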

How the data were processed

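Stranded mRNA libraries of rabbit conjunctiva were sequenced with paired-end reads. Per the submitters' processing notes, the reads were mapped with STAR 2.6.0c to OryCun2.0, and by the methods of the study values per gene and transcript were made in GeneData Profiler Genome. The authors deposited estimated counts, not scaled by library size, of which 23.4% in the gene table were fractions, and FPKM values, scaled by them for depth and for the length of the transcript. Whether counting used the strand is not given in the sources used here.

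Counts were rounded to whole numbers. The filter filterByExpr (minimum count 10, minimum total 15) kept 14835 of 20566 genes and 26082 of 38710 transcripts. All 12 libraries entered a single quasi-likelihood fit in edgeR 4.0.16 (R 4.3.3) with TMM scaling, no covariates, and 0.125 as prior count, and each SE is the fold change over the root of its F statistic. Benjamini-Hochberg adjustment ran over all features tested, and the threshold was 0.05. A fold change against controls at 3 counts or fewer was computed against 3 counts per library and is a lower bound. FPKM values served for shares and ratios within libraries and, as log2(FPKM + 0.1) and log2(FPKM + 1), for alternatives in limma 3.58.1. Other alternatives were DESeq2 1.42.0 size factors and its test, library size only, no filter, only the 6 libraries compared, the replicate number as a block, and each library left out.

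The members, the gene lists, and the cell markers (surface epithelium, neutrophil, monocyte and macrophage, fibroblast, endothelium, skeletal muscle, Schwann cell, cornea, T cell) were chosen with earlier results of these data known. From each list the called genes with the largest fold changes, at most 3 per direction and comparison, could be named, and for each member the 3 genes with the highest correlation of log2 CPM (prior count 2). MMP8, MMP27, and some markers were found by their unique description in the table, which was done after the data were seen. No library of a group was a copy of another. A gene of the plasminogen list is not reported here by name.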

Additional observations from a re-analysis of the deposited data

Results flagged for a closer look

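The difference between TL3d and TL3h itself passed the test for 1 member and for 5 further genes of the MMP and TIMP families, at an edgeR adjusted P of 0.05 (18.4% of all genes tested were higher and 19% lower). MMP13 was higher at 3 days (log2 fold change 7.14 ± 2.01, edgeR adjusted P = 0.0188), with 18 of 21 alternatives passing. MMP15 (3.03 ± 0.48, edgeR adjusted P = 0.000989) and MMP28 (3.69 ± 0.75, edgeR adjusted P = 0.00376) were higher at 3 days in all 21 alternatives. MMP15 stood at 14.5, 3.98, and 9.66 CPM at 3 hours and 74.9, 88.7, and 66.7 CPM at 3 days, without overlap. MMP11 was higher at 3 days (2.65 ± 0.92, edgeR adjusted P = 0.0447), with 12 of 21 alternatives passing and TL3d replicate 3 far above the other libraries (21.6 against 2.35 and 6.90 CPM). MMP27 was lower at 3 days (-3.54 ± 1.2, edgeR adjusted P = 0.0407; 14 of 21 alternatives). TIMP2 was lower at 3 days (-1.97 ± 0.70, edgeR adjusted P = 0.0483; 10 of 21 alternatives). For MMP11, MMP27, and TIMP2 the call was lost in some analyses with a library left out, and their highest edgeR adjusted P values were 0.196 without TL3d replicate 3 and 0.128 and 0.15 without TL3d replicate 2.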

How the results depend on the processing

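For single members 925 values under an alternative kept their direction and their side of the threshold, 62 newly passed it, 39 no longer passed it, and 22 changed direction, none of which had passed. The cause of these changes was not tested. The members called were 5 at 3 hours, 5 at 3 days, 0 at 14 days, 1 between TL3d and TL3h, and 0 between TL14d and TL3d. With 1 library left out the counts ranged from 4 to 7, 0 to 7, 0 to 6, 0 to 3, and 0 to 1, and the counts of all genes from 5280 to 7271, 359 to 3778, 0 to 716, 3954 to 6231, and 0 to 584 (with all libraries 6733, 2608, 0, 5537, and 332). The DESeq2 test called 5 members at 14 days and 3 between TL3d and TL3h, and 4471 genes at 3 days, 367 at 14 days, and 1850 between TL14d and TL3d. With only the 6 libraries compared, 5 members were called between TL3d and TL3h and 15 genes between TL14d and TL3d. limma on log2(FPKM + 0.1) called 2 members between TL3d and TL3h, 1 gene at 14 days, and 510 genes between TL14d and TL3d. On log2(FPKM + 1) it called 3 members at 3 hours, 3 between TL3d and TL3h, and 1 (MMP3) between TL14d and TL3d, with 764 genes. Without control replicate 3 and TL14d replicate 1, an alternative chosen after the data were seen, the counts of members were 8 at 3 hours, 7 at 14 days, and 4 between TL3d and TL3h, and 999 genes were called at 14 days. With library size only, the median of all genes at 3 hours moved to -0.47, and 25% instead of 51% of the calls at 3 hours were higher; between TL3d and TL3h the share was 80.5% instead of 49.2%.

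Directions that changed were those of MMP1 between TL3d and TL3h (-0.09 with all libraries; 0.39 with library size only, 0.26 and 0.26 in limma; -0.64 to 0.19 with 1 library left out) and of MMP9 between TL14d and TL3d (1.91 with all libraries; -1.92 and -1.10 in limma; -1.97 to 2.49). TIMP3 changed direction without control replicate 3 and TL14d replicate 1, at 3 days (0.71) and 14 days (0.30). With 1 library left out TIMP3 ranged from -0.65 to 0.71 at 3 days and -1.22 to 0.13 at 14 days, MMP2 from -0.78 to 1.69 at 3 days, -0.22 to 2.07 at 14 days, and -0.76 to 1.69 between TL14d and TL3d, MMP10 from -1.0 to 4.14 at 14 days, and MMP14 from -0.23 to 0.70 at 3 days.

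Libraries of different groups share replicate numbers, and whether these numbers pair any libraries was not given. Of 18 pairs with the same number, 8 had deviations from their group means that correlated above 0.1 (range -0.171 to 0.502). Pairs with different numbers were not compared, so these values cannot decide the pairing. With the replicate number as a block 5 members were called at 3 hours, 4 at 3 days, 0 at 14 days, and 2 between TL3d and TL3h (MMP13 and TIMP3). MMP2 newly passed at 3 hours (2.08 ± 0.61, edgeR adjusted P = 0.0235), and MMP9 no longer passed at 3 hours (edgeR adjusted P = 0.0523) or 3 days (edgeR adjusted P = 0.0585). With 3 libraries a group, depth limited MMP3 and MMP13 in control, where only bounds can be given.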

Other observations

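Neighbours of the MMP genes on chromosome 1 were measured as well. DCUN1D5, upstream of MMP13, stood at 28.9, 31.5, and 33.2 CPM in control and 114, 80.9, and 124 CPM at 3 hours, without overlap (1.77, edgeR adjusted P = 0.000375). MMP7, matrilysin of epithelial cells, rose at 3 hours (1.88 ± 0.59, edgeR adjusted P = 0.0249) and did not pass at 3 days (1.84 ± 0.59, edgeR adjusted P = 0.0561). BIRC2, beyond MMP7, rose by 0.40 at 3 hours (edgeR adjusted P = 0.0438). MMP20, an enamel protease, had 1 count in 1 library and none in the others.

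Of the further cell markers, 2 of 5 endothelial markers were higher at 3 hours and none at 3 days. Of 5 Schwann cell markers 1 was higher at 3 hours, of 3 corneal markers 1 was higher at 3 days, and of 5 T cell markers 1 was lower at 3 hours. None of the tested skeletal muscle and fibroblast markers passed against control at any time, and of 11 epithelial markers 2 were higher and 2 lower at 3 hours, and 2 higher and 1 lower at 3 days. At 14 days no marker passed. Of all genes tested, 23.2% were higher and 22.2% lower at 3 hours, and 10.6% and 7% at 3 days.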
